A study of Mus musculus with 2 samples.

Results

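The Pim family of serine/threonine kinases, *Pim1*, *Pim2* and *Pim3*, was followed across the T, NK, B, plasma and neutrophil classes of the mouse omentum. The 3 genes were found by symbol among the 19960 genes listed, and *Pim2* was chosen by its higher level in CD8 T cells of the DTR library, so that its value there is given as a description. Single cells were isolated from omenta of wild-type (WT) mice and of *Postn*-DTR mice (DTR), which carry a diphtheria toxin receptor cassette at the *Postn* locus. Both groups received diphtheria toxin (DT) and were taken 5 days later, so the WT library is a control for the toxin and differs from DTR in the receptor allele. Each group was 1 library made from 3 pooled mice, and a difference between the libraries therefore had no replicate check and no test. The receptor is driven by the *Postn* locus, which is also active in myofibroblasts, bone-forming cells and colon epithelium, so DT can remove cells outside the omental stroma. The DTR allele was made in C57BL/6 zygotes, and the age of the mice was not given in the sources used here.

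The WT library held 8654 cells after filtering, with a median of 5635 unique molecular identifiers (UMIs, 1 per captured transcript) per cell, and the DTR library held 5727 cells with a median of 8472. The libraries shared 65 barcode sequences. Cells were clustered anew and classes were named from marker genes, 14 of which are followed here, so the names carry the ending "-like" and may differ from those of the study. In the stromal-like cells, 42 in WT and 21 in DTR, *Aldh1a2* was at 3.49 UMIs per 10000 in WT and at 0.722 in DTR, and *Postn* was at 0.649 and 0.146. CD8 T-like cells numbered 376 in WT and 49 in DTR, and naive CD4 T-like cells 444 and 24, so values in these DTR classes rest on few cells.

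PIM kinases are active as soon as they are made, so that their amount is set largely by transcription and by the turnover of the mRNA and the protein. Cytokine receptors that signal through JAK kinases and STAT5 or STAT3 induce them, as does NF-kB, and they phosphorylate regulators of survival, translation and the cell cycle such as BAD, EIF4B and the inhibitor p27 (*Cdkn1b*). PIM1 is known from myeloid and lymphoid cells that respond to cytokines, PIM2 is best known for the survival of lymphocytes and plasma cells, and PIM3 is the least studied of the 3.

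The 3 genes lie on different chromosomes of the mm10 (GRCm38) build and all are protein coding on the plus strand. *Pim1* (ENSMUSG00000024014) spans chr17:29490753-29496112, *Pim2* (ENSMUSG00000031155) spans chrX:7878262-7883432, and *Pim3* (ENSMUSG00000035828) spans chr15:88862186-88865726. The 5′ end of *Pim1* overlaps the antisense gene Gm26885, which had 229 UMIs in WT and 243 in DTR against 26786 and 37957 of *Pim1*, and no annotated gene overlaps the other two. Their promoters are printed because the 3 kinases differed in where and how they changed. The stretches run 5′ to 3′ up to the base before the first annotated start (RefSeq promoter table, GRCm38.p6) at chr17:29490535-29490752, chrX:7878056-7878261 and chr15:88861944-88862185, and capitals mark matches to the motifs named after them.
Pim1: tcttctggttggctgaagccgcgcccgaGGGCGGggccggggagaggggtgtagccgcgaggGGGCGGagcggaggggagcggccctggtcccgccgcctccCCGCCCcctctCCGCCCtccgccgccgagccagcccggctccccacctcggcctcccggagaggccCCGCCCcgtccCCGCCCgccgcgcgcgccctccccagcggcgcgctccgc
Pim2: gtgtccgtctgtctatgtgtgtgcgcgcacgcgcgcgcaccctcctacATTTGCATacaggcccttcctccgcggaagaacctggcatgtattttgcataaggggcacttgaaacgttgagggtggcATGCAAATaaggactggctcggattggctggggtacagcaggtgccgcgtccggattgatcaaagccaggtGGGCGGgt
Pim3: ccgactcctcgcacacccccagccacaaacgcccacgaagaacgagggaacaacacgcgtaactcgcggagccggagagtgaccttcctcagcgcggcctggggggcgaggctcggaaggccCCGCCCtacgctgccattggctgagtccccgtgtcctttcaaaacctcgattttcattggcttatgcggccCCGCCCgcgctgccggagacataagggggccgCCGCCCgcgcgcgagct
The *Pim1* stretch of 218 bases was 83.0% G and C and held the GC box (GGGCGG, either strand) 6 times, the *Pim3* stretch of 242 bases was 67.4% G and C and held it 3 times, and the *Pim2* stretch of 206 bases was 58.3% G and C and held it 1 time. The octamer ATGCAAAT, a motif bound by POU factors such as OCT1 and OCT2, occurred 2 times before *Pim2*, once on each strand, and was searched for after this sequence had been seen. Windows of the same length held an octamer in 1.36% of 32851 RefSeq promoters, and a GC box in 25.8% to 31.6%. None of the 3 stretches held the STAT motif TTCNNNGAA, the AP-1 motif TGANTCA, the TATA box TATAAA or the glucocorticoid response element, on either strand, and no marked motif overlapped another. These matches describe letters and not binding.

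*Pim1* supplied most of the family's transcripts. Over all cells, *Pim1* had 26786 UMIs in WT and 37957 in DTR, *Pim2* 2964 and 2667, and *Pim3* 2818 and 2366. These are tags from 1 end of a transcript and are not scaled by gene length, so shares of the family are shares of captured tags. *Pim1* made up 95% of the family's UMIs in WT neutrophil-like cells and 97.7% in DTR, and 79.9% and 90.1% in plasma-like cells. Its smallest share was in CD8 T-like cells, with 58.6% in WT and 48.8% in DTR, where *Pim2* took 28.0% and 39.9%. In NK-like cells the share of *Pim2* was 11.4% in WT and 24.7% in DTR, and that of *Pim3* 14.3% and 18.9%.

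**Figure D1:**
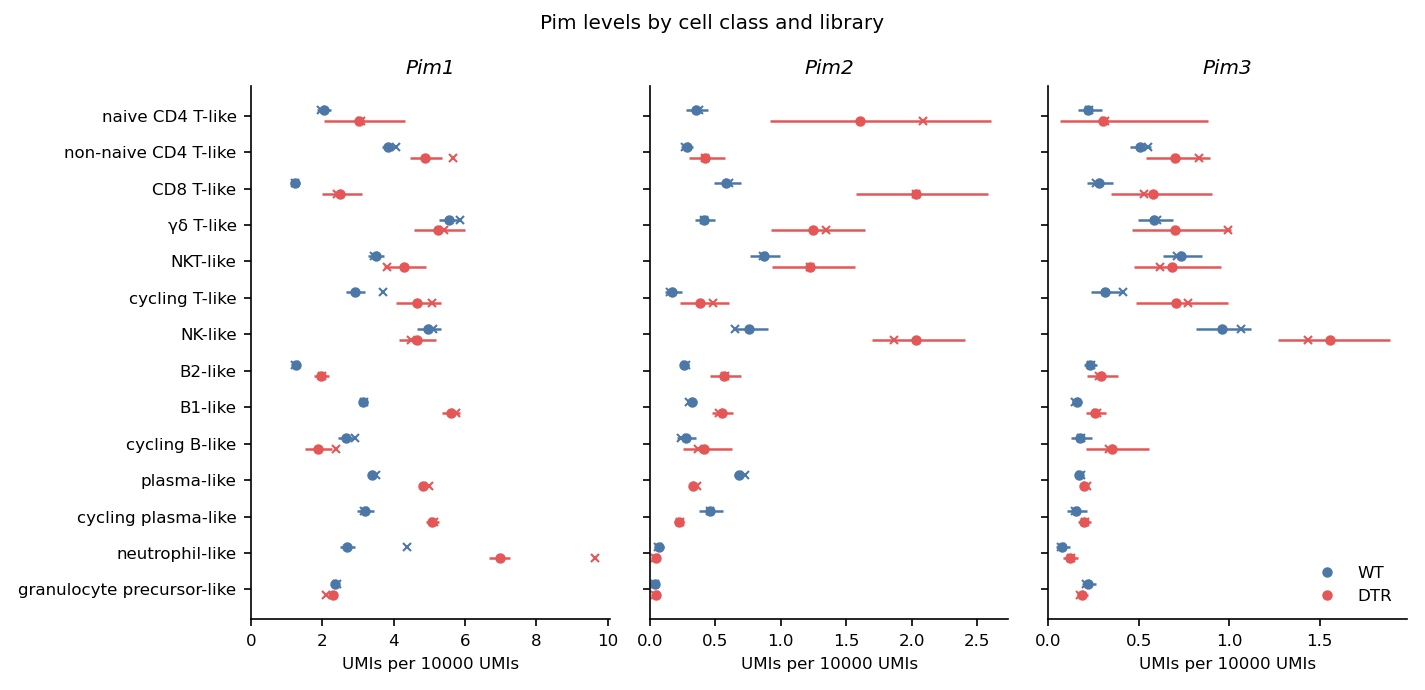
Levels of *Pim1*, *Pim2* and *Pim3* (UMIs per 10000 UMIs, horizontal axis) in 14 cell classes of the WT and DTR libraries. Points are summed UMIs of the class with exact 95% Poisson intervals (counting error only), and crosses are means over cells. *Pim2* in DTR was highest in naive CD4 T-like, CD8 T-like and NK-like cells and near 0 in neutrophil-like cells.

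The level of *Pim2* (the mean over cells of UMIs per 10000) was highest in NKT-like (0.864), plasma-like (0.728), NK-like (0.650) and CD8 T-like cells (0.605) of the WT library. The counting intervals of NKT-like and plasma-like cells did not overlap, whereas those of plasma-like, NK-like and CD8 T-like cells did. Naive CD4 T-like cells were at 0.373, B1-like cells at 0.303 and B2-like cells at 0.278. Cycling T-like cells were at 0.152, and neutrophil-like cells at 0.0644 from 16 UMIs in 241 cells. In the DTR library the order was led by naive CD4 T-like (2.09), CD8 T-like (2.03) and NK-like cells (1.87), with overlapping intervals, followed by γδ T-like (1.35) and NKT-like cells (1.22). Plasma-like cells, second in WT, were eleventh of 14 in DTR at 0.359. Neutrophil-like cells again had almost none, with 15 UMIs in 743 cells.

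In CD8 T-like cells *Pim2* was at 0.605 UMIs per 10000 in WT, from 130 UMIs in 376 cells, and at 2.03 in DTR, from 67 UMIs in 49 cells. The log2 ratio of DTR over WT was 1.72 (the ratio of mean levels with 0.02 added to each), and that of summed UMIs was 1.81, with a 95% counting interval of 1.35 to 2.24. With every cell thinned to 1000 UMIs the log2 ratio was 0.75, from 27 and 6 UMIs, and below the fold of 2 used for calls. Median depth was 5585 UMIs per cell in WT and 6554 in DTR. Among the 3267 genes with at least 100 UMIs in this class, *Pim2* had the fourth highest ratio. An absolute log2 ratio of at least 1 was reached by 4.41% of these genes, and *Pim2* was the 1 Pim gene past it, which is what it was chosen for.

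A *Pim2* UMI was found in 24.2% of CD8 T-like cells in WT (91 of 376) and in 55.1% in DTR (27 of 49). Of the 49 DTR cells, 12 had 1 UMI, 7 had 2 and 8 had 3 or more, with a maximum of 9. Of the 376 WT cells, 66 had 1, 19 had 2 and 6 had 3 or more, with a maximum of 7. No *Pim2* UMI was found in 22 of the 49 DTR cells and in 285 of the 376 WT cells. When each cell was thinned to 1000 UMIs the shares were 6.38% in WT (4.13% to 9.35%, exact binomial) and 12.2% in DTR (4.63% to 24.8%), from 24 and 6 cells, and the intervals overlapped. In macrophage-like cells, taken as the background, 1.65% of 121 WT cells and 1.55% of 322 DTR cells had a UMI at median depths of 5130 and 3590. Stromal-like cells, the background first planned, had one in 23.8% of 42 WT and 23.8% of 21 DTR cells, at median depths of 23780 and 26860. Thinned to 1000 UMIs, the shares were 2.38% and 0% in stromal-like cells and 0.848% and 0% in macrophage-like cells.

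**Figure D2:**
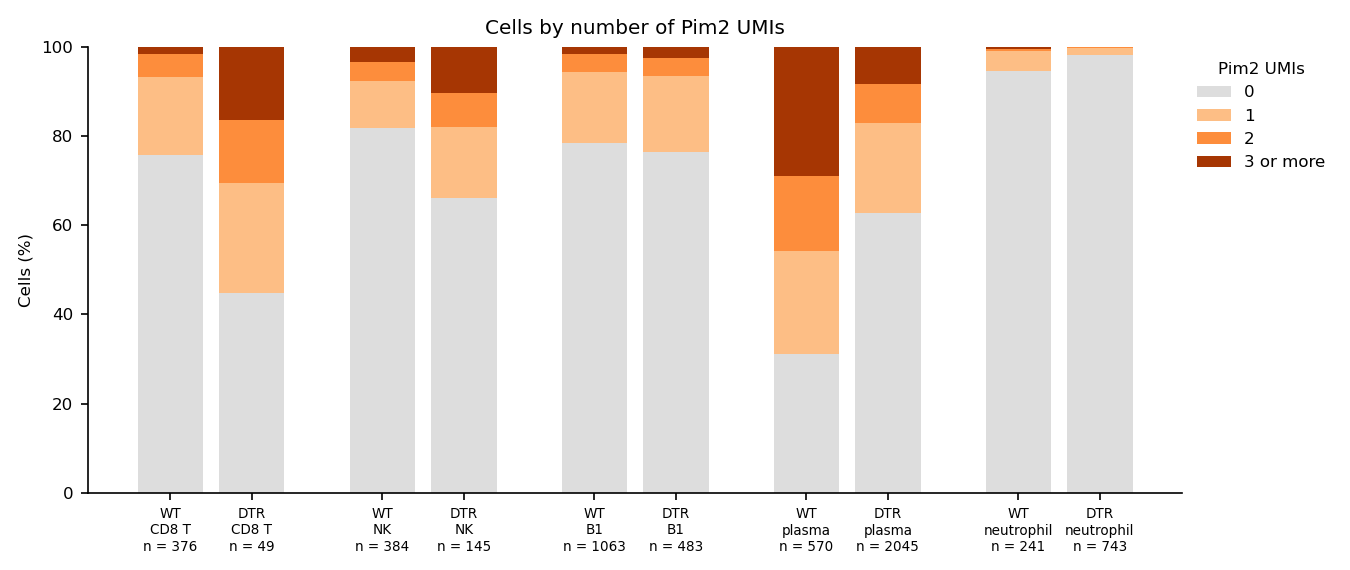
Percent of cells (vertical axis) with 0, 1, 2 and 3 or more *Pim2* UMIs in 5 classes of each library, not thinned, with the number of cells under each bar. In CD8 T-like cells the share with at least 1 UMI was 24.2% in WT and 55.1% in DTR, and in plasma-like cells 68.8% and 37.3%.

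The CD8 T-like class was made of 2 clusters, one led by *Cd8b1*, *Cd8a* and *Gzmk* (cluster 17) and one with the naive-type gene *Lef1* among its leading genes (cluster 20). The first made up 58.5% of the class in WT and 67.3% in DTR. *Pim2* was higher in DTR within both. In cluster 17 it was at 0.579 in WT (220 cells) and 1.64 in DTR (33 cells), and the log2 ratio was 1.47 with a counting interval of 1.07 to 2.22 for summed UMIs. In cluster 20 it was at 0.641 in WT (156 cells) and 2.85 in DTR (16 cells), a log2 ratio of 2.12 (1.39 to 2.84). This split was chosen after the values had been seen.

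Other lymphocytes with *Pim2* had more of it in DTR as well. In γδ T-like cells, an IL-17 type here by their leading genes, *Pim2* was at 0.414 in WT (110 UMIs) and 1.35 in DTR (50 UMIs), a log2 ratio of 1.65, with 1.07 to 2.08 for summed UMIs. It was thirteenth of 4493 genes in this class, of which 5.88% were past the fold. In NK-like cells it was at 0.650 (129 UMIs) and 1.87 (133 UMIs), a log2 ratio of 1.49 (1.06 to 1.78) and the eleventh highest of 3750 genes, with 1.55% past the fold. After thinning to 1000 UMIs the log2 ratio was 1.24 in γδ T-like cells, from 19 and 7 UMIs, and 0.88 in NK-like cells, from 33 and 23 UMIs, so that the NK-like value was no longer past the fold. B2-like cells had 0.278 and 0.573, a log2 ratio of 0.99 (0.73 to 1.47), where 2.17% of genes were past the fold. B1-like cells had 0.303 and 0.529, a log2 ratio of 0.77 (0.51 to 1.04), where 2.61% were. Neither B class reached the fold of 2 with the main measure, and both did after thinning (1.35 and 1.08).

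NKT-like cells, which had the highest WT level, changed less, from 0.864 in WT to 1.22 in DTR, a log2 ratio of 0.49 (0.05 to 0.89), where 2.22% of genes were past the fold. In non-naive CD4 T-like cells the levels were 0.270 and 0.423 and the log2 ratio 0.61 (0.04 to 1.10), where 2.69% of genes were past the fold. This class held Treg cells, and the finer clustering parted them. The CD4 T-like cells without them had 0.268 *Pim2* in WT and 0.607 in DTR, a log2 ratio of 1.13 (0.27 to 1.58), whereas Treg-like cells had 0.283 and 0.289, from 63 and 14 UMIs, a log2 ratio of 0.03 (-0.79 to 1.02). Whether the ratio differed between the 2 sets was not tested, and their intervals overlapped.

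Naive CD4 T-like, cycling T-like and cycling B-like cells had fewer than 100 *Pim2* UMIs and were not ranked. Naive CD4 T-like cells were at 0.373 in WT (72 UMIs) and 2.09 in DTR (16 UMIs in 24 cells). Cycling T-like cells were at 0.152 (27 UMIs) and 0.481 (18 UMIs). Cycling B-like cells were at 0.241 (58 UMIs) and 0.367 (21 UMIs in 18 cells). All 3 were higher in DTR, and the counting interval of the cycling B-like ratio, -0.22 to 1.32, held 0. Thinning to 1000 UMIs left too few UMIs to read a direction. It left 17 in WT and 2 in DTR naive CD4 T-like cells, 1 and 0 in cycling T-like cells, and 0 and 0 in cycling B-like cells. The thinned log2 ratio was 1.12 in naive CD4 T-like cells and changed sign, to -2.70, in cycling T-like cells. Genes past the fold made up 13.6% of those ranked in naive CD4 T-like cells, 3.08% in cycling T-like and 5.32% in cycling B-like cells. Outside these classes, ILC2-like cells were at 0.331 in WT and 1.03 in DTR.

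**Figure D3:**
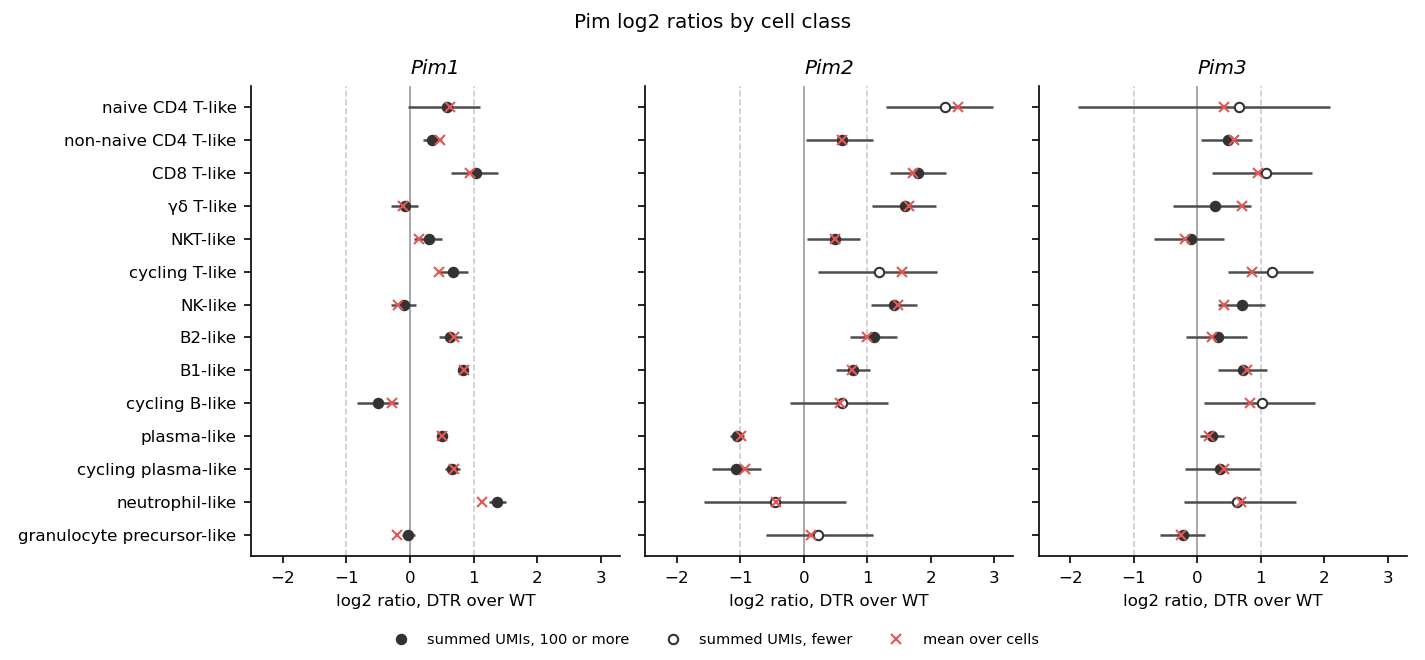
Log2 ratio of DTR over WT (horizontal axis) for the 3 Pim genes in 14 classes. Circles are summed UMIs with 95% counting intervals, open where the class had fewer than 100 UMIs of the gene, crosses are ratios of means over cells, and dashed lines mark a fold of 2. *Pim2* lies right of 0 in the T, NK and B classes and left of 0 in both plasma classes.

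Plasma-like cells moved the other way. *Pim2* was at 0.728 UMIs per 10000 in WT (1186 UMIs in 570 cells) and at 0.359 in DTR (1643 UMIs in 2045 cells), a log2 ratio of -0.98, and of -1.05 for summed UMIs (-1.16 to -0.94). With a gate on marker UMIs in place of clusters, 282 WT and 1431 DTR cells were at 0.585 and 0.390, a log2 ratio of -0.56. Of 9591 genes ranked in this class 5.63% were past the fold, and *Pim2* lay just inside with the main measure. A *Pim2* UMI was found in 68.8% of WT cells and 37.3% of DTR cells, at median depths of 28700 and 23250. Cycling plasma-like cells were at 0.457 (101 UMIs in 50 cells) and 0.231 (137 UMIs in 183 cells), a log2 ratio of -0.93 (-1.44 to -0.67), in a class where 6.46% of genes were past the fold.

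The plasma-like class held 4 clusters, whose shares differed between the libraries. Cluster 3, led by *Prg2*, *Jchain* and *Igha*, was 68.2% of the class in WT and 45.8% in DTR, and cluster 4, led by *Fkbp11* and *Derl3* of the secretory pathway, was 12.1% and 32.5%. Within cluster 3, *Pim2* was at 0.725 in WT and 0.332 in DTR. Within cluster 4 it was at 1.16 and 0.375, a log2 ratio of -1.58. Within cluster 14, led by *Ighg3* and *Ighg2b*, it was at 0.579 and 0.252. Cluster 19, the smallest and with 14.2% of its cells marked as doublets, had 0.288 (36 UMIs) and 0.663 (64 UMIs) as means over cells, and a counting interval from -0.86 to 0.39 for summed UMIs. The other 3 clusters thus each had less *Pim2* in DTR, whereas the direction in cluster 19 depended on the measure.

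**Figure D4:**
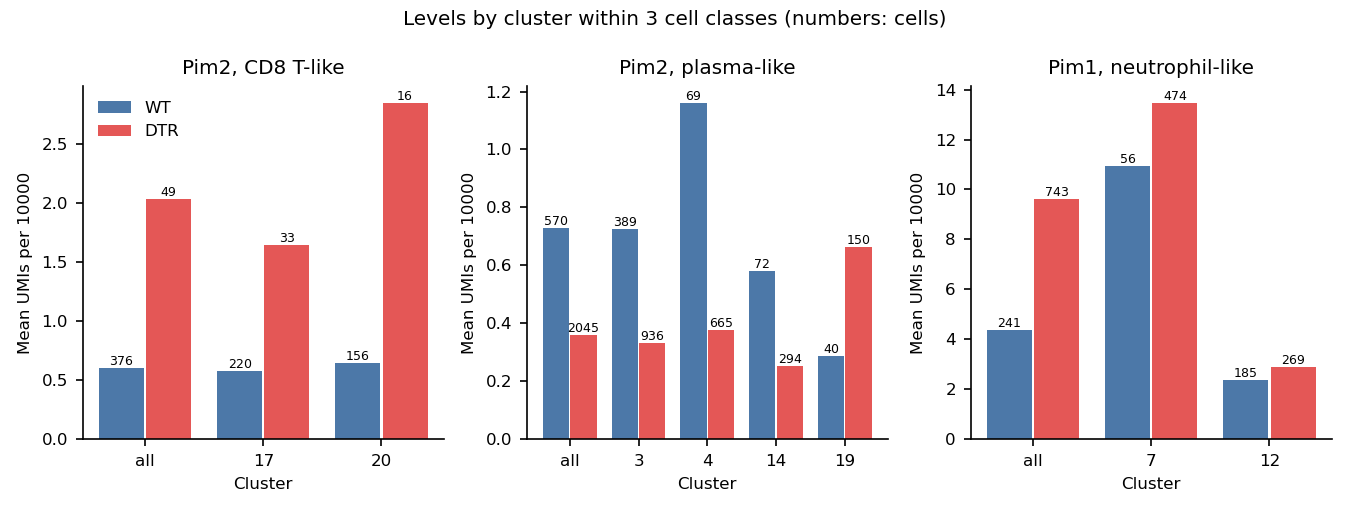
Mean level (UMIs per 10000, vertical axis) by cluster of *Pim2* in CD8 T-like and plasma-like cells and of *Pim1* in neutrophil-like cells, WT and DTR, with the number of cells above each bar. Both CD8 T-like clusters had more *Pim2* in DTR, and 3 of 4 plasma-like clusters had less. *Pim1* was at 10.9 in WT and 13.5 in DTR in neutrophil-like cluster 7, and at 2.38 and 2.88 in cluster 12.

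*Pim1*, the most abundant member, was highest in γδ T-like (5.87), NK-like (5.11), neutrophil-like (4.37) and non-naive CD4 T-like cells (4.06) of the WT library, and lowest in CD8 T-like (1.24) and B2-like cells (1.22), whose intervals overlapped. In DTR neutrophil-like cells led with 9.63, and B2-like cells were lowest with 1.98. The neutrophil-like class was the one in which *Pim1* was past the fold, at 4.37 in WT (647 UMIs in 241 cells) and 9.63 in DTR (2148 UMIs in 743 cells), a log2 ratio of 1.14 (1.25 to 1.51 for summed UMIs), in a class where 7.63% of 4300 genes were.

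The makeup of the class also differed between the libraries, and its part in the *Pim1* difference was not tested. Cluster 7, led by the receptors *Csf3r* and *Cxcr2* of mature neutrophils, was 23.2% of the class in WT and 63.8% in DTR, and cluster 12, led by the granule genes *Ltf*, *Ngp* and *Camp* of immature ones, was 76.8% and 36.2%. *Pim1* was at 10.9 in WT and 13.5 in DTR in cluster 7, and at 2.38 and 2.88 in cluster 12. The log2 ratios within the clusters were 0.30 and 0.27, and their intervals for summed UMIs, 0.36 to 0.79 and 0.11 to 0.50, lay above 0. The finer clustering named another cluster neutrophil-like (53 cells in WT and 113 in DTR), led by *Fcnb* and *Orm1*. By the cell counts it came mostly from the granulocyte precursor-like class, which went from 177 and 286 cells to 128 and 175. The clusters matching 7 and 12 still held 56 and 474, and 182 and 267 cells. In the added cluster *Pim1* was lower in DTR, at 1.11 and 0.666, a log2 ratio of -0.72 (-0.86 to -0.22). In granulocyte precursor-like cells, which make primary granule proteins such as *Elane* and *Mpo*, *Pim1* was at 2.42 and 2.09, a log2 ratio of -0.21 where 2.54% of genes were past the fold.

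In the B lineage *Pim1* was higher in DTR in 4 of 5 classes. B1-like cells were at 3.18 in WT (3102 UMIs) and 5.74 in DTR (1924 UMIs), a log2 ratio of 0.85 (0.75 to 0.91). B2-like cells were at 1.22 and 1.98, a log2 ratio of 0.69 (0.45 to 0.82). The finer clustering split them into 3 clusters of 930, 508 and 316 cells in WT and 77, 343 and 82 in DTR. Within these the log2 ratios of *Pim1* were lower, at 0.12, 0.49 and 0.41. For summed UMIs they were -0.09 (-0.67 to 0.39), 0.38 (0.13 to 0.62) and 0.18 (-0.10 to 0.44). Plasma-like cells were at 3.51 and 4.99, a log2 ratio of 0.51 (0.46 to 0.55), and cycling plasma-like cells at 3.17 and 5.14, a log2 ratio of 0.70 (0.55 to 0.79). *Pim1* and *Pim2* thus lay on opposite sides of 0 in the plasma classes. Cycling B-like cells were at 2.90 in WT and 2.39 in DTR, a log2 ratio of -0.28 (-0.84 to -0.19) from 18 DTR cells.

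In T cells *Pim1* differed most in CD8 T-like cells, at 1.24 in WT (272 UMIs) and 2.41 in DTR (82 UMIs), a log2 ratio of 0.95 (0.65 to 1.39) and forty-seventh of the 3267 genes ranked. Naive CD4 T-like cells were at 1.97 and 3.07 (30 UMIs in DTR), with an interval from -0.03 to 1.10. γδ T-like cells, at 5.87 and 5.42, and NK-like cells, at 5.11 and 4.48, had intervals of -0.30 to 0.12 and -0.29 to 0.09, which held 0. These intervals cover counting error only, and whether *Pim1* differed there was not tested. After thinning to 1000 UMIs its log2 ratios were -0.13 and -0.42. *Pim2* was past the fold in both classes with the main measure. In non-naive CD4 T-like cells the levels were 4.06 and 5.66 and the log2 ratio 0.48 (0.20 to 0.50). After the finer clustering, Treg-like cells held the higher level, 7.31 in WT and 9.93 in DTR (0.23 to 0.58), and the other cells were at 2.44 and 2.33, a log2 ratio of -0.06. The finer clustering held 408 Treg-like and 834 other cells in WT and 102 and 129 in DTR.

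*Pim3* was highest in NK-like cells, with 1.07 in WT (163 UMIs) and 1.44 in DTR (102 UMIs), a log2 ratio of 0.42, and of 0.70 for summed UMIs (0.33 to 1.07). NKT-like (0.712), γδ T-like (0.602) and non-naive CD4 T-like cells (0.552) followed in WT, and neutrophil-like cells were lowest (0.0706). It passed the fold in none of the 9 classes with at least 100 UMIs, was higher in DTR in 7 of them and lower in 2, and had a counting interval above 0 in 4. B1-like cells were at 0.149 and 0.271, a log2 ratio of 0.78 (0.32 to 1.10) that was 0.05 after thinning to 1000 UMIs, from 19 and 9 UMIs. CD8 T-like cells were at 0.264 (62 UMIs) and 0.529 (19 UMIs), which was not ranked. Over the same kind of count, *Pim1* was higher in 10 of 14 ranked classes and past the fold in 1. *Pim2* was higher in 7 of 9 and past the fold in 3, all with a higher level in DTR. The CD8 T-like value, by which *Pim2* was chosen, is counted among both the 7 and the 3, so this count is a description. In 2 of the 3, CD8 T-like and NK-like cells, *Pim2* was not past the fold after thinning. Over all genes and classes 4.28% of 75435 ranked pairs were past the fold. That share is for the fold alone. The shares of all genes with a higher level in DTR or with an interval above 0 are not given here, so those counts have no background. The median log2 ratio of all ranked genes lay between -0.09 (cycling T-like) and 0.12 (neutrophil-like) in the 14 classes.

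The pattern over classes was compared by Pearson's r of log2 levels over 27 points, the classes of each library with at least 20 cells, which share libraries and depth, so r is a description. Within the family r was -0.03 for *Pim1* with *Pim2*, 0.27 for *Pim1* with *Pim3* and 0.61 for *Pim2* with *Pim3*. Among 9493 genes the one most like *Pim2* was *Bcl2* (r = 0.86, Spearman's rho = 0.80), the inhibitor of apoptosis, followed by *Zfp945* (0.82), *Zfp12* (0.79), *Agpat3* (0.79) and *Tha1* (0.79). Over the 14 WT points alone 0 of these 5 stayed among the 5 nearest to *Pim2* (r = 0.72 for *Bcl2*), and 1 stayed by Spearman's rho, so the order changed without the DTR points, among them the CD8 T-like level by which *Pim2* was chosen. Nearest to *Pim1* were *Fgl2* (0.81), *Gadd45b* (0.75), *Csrnp1* (0.70), *Nfkbia* (0.66), the NF-kB inhibitor, and *Ccrl2* (0.65). Nearest to *Pim3* were *Gm33104* (0.93), *Gzmb* (0.91), the granzyme of killer cells, *Muc1* (0.91), *Serpinb9* (0.91), an inhibitor of granzyme B, and *Sytl3* (0.90).

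**Figure D5:**
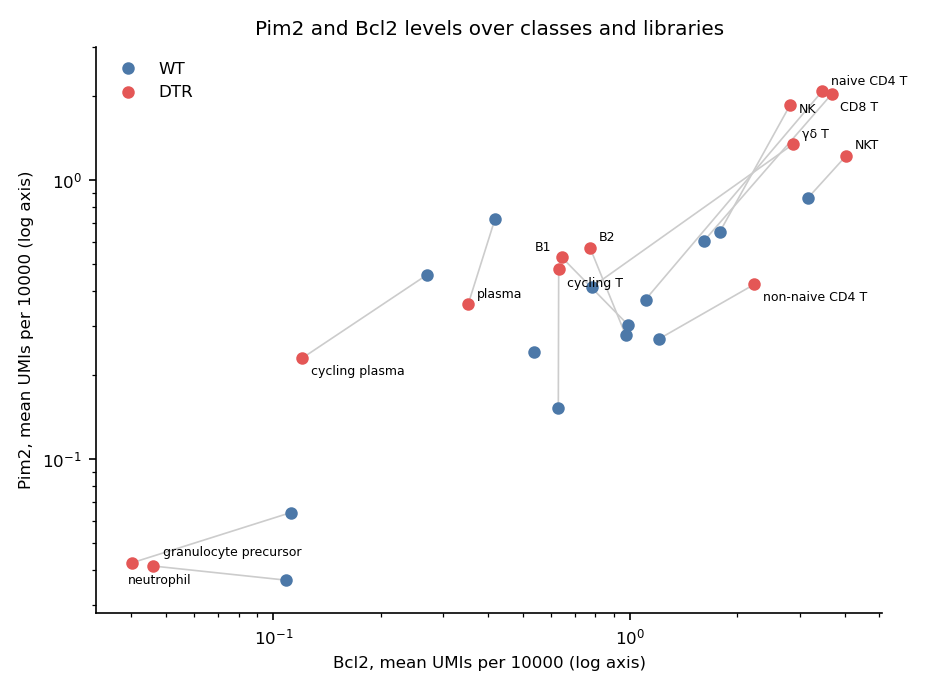
Levels of *Bcl2* (horizontal axis) and *Pim2* (vertical axis), both as mean UMIs per 10000 on log axes, in the 27 class and library points. Grey lines join the WT and DTR point of a class, and DTR points carry the class name. Both genes were higher in DTR in CD8 T-like, γδ T-like, naive CD4 T-like and NK-like cells, and *Pim2* but not *Bcl2* was higher in B1-like and B2-like cells.

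*Bcl2*, also a STAT5 target by the lists used, was at 1.61 in WT and 3.68 in DTR CD8 T-like cells, a log2 ratio of 1.18 (0.93 to 1.51 for summed UMIs). In γδ T-like cells it was at 0.783 and 2.87, a log2 ratio of 1.85, and in NK-like cells at 1.78 and 2.82, a log2 ratio of 0.65. The B classes parted from this pattern, since *Bcl2* was at 0.988 and 0.644 in B1-like cells, a log2 ratio of -0.60 (-0.80 to -0.37), where *Pim2* was higher.

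Genes around the PIM kinases were read from 6 lists. Among genes that carry the input, the 16 cytokine receptors had 127 ranked pairs of gene and class, of which 6 were past the fold upward and 11 downward. *Il2rg*, the common γ chain of the IL-2 receptor family, was past the fold downward in 5 of 14 classes, among them plasma-like cells (1.58 in WT and 0.566 in DTR, a log2 ratio of -1.45), which also had less *Tnfrsf17*, the plasma cell receptor BCMA (1.47 and 0.640, -1.17). *Il7r* was at 5.24 and 10.9 in the non-naive CD4 class, with 1.05 as its log2 ratio. Over its 8 ranked classes it was past the fold upward in 1 and downward in 1, with -1.22 as its lowest log2 ratio. In CD8 T-like cells 0 of the 9 ranked receptors were past the fold, with a median log2 ratio of 0.293. There *Il7r* was at 4.55 in WT and 3.66 in DTR, a log2 ratio of -0.313. *Il2rg* had -0.285 in this class and *Il2rb* 0.495. The 11 JAK and STAT genes had 1 of 121 pairs past the fold upward and 2 downward. The share of 4.28% over all ranked pairs of gene and class was made of 1351 upward and 1879 downward.

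Targets and feedback genes of STAT5 had 20 of 110 pairs past the fold upward and 4 downward. *Socs3*, the cytokine feedback inhibitor, accounted for 7 of the 20 and had a positive log2 ratio in all 13 classes where it was ranked, from 0.34 to 2.61. In B2-like cells it was at 0.194 in WT and 1.29 in DTR, in naive CD4 T-like cells at 0.578 and 3.28, and in plasma-like cells at 0.0566 and 0.253. In CD8 T-like cells 1 of the 7 ranked genes of the list, *Bcl2*, was past the fold, and the median log2 ratio of the list was 0.44 beside -0.06 over all genes ranked. The 7 NF-kB genes had 0 of 87 pairs past the fold upward and 3 downward, with *Nfkb2* lower in both plasma classes.

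The 16 genes of PIM substrates had 4 of 130 pairs past the fold upward and 2 downward. *Eif4ebp1*, a repressor of cap-dependent translation, was at 1.52 in WT and 3.24 in DTR neutrophil-like cells, a log2 ratio of 1.08, and at 0.522 and 0.216 in γδ T-like cells, -1.20 with an interval that held 0. In CD8 T-like cells 0 of the 5 ranked substrates were past the fold, with a median log2 ratio of -0.66. The AKT and SGK kinases, which share substrates with PIM, had 3 of 61 pairs past the fold upward and 1 downward. *Mtor* was higher in cycling plasma-like cells, at 0.148 and 0.379.

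Markers of other cells were measured beside the *Pim2* difference in CD8 T-like cells. The 8 plasma cell genes summed to 5.21 UMIs per 10000 in WT and 9.55 in DTR, with *Igkc* at 1.01 and 2.92 and *Jchain* at 0.642 and 1.40, and 1 of the 8 was at 0 in DTR. If all *Igkc* in this class came with plasma cell RNA in the ratio of plasma-like cells, it would bring 0.326 *Pim2* UMIs in WT and 0.0691 in DTR, or 0.251% and 0.103% of those found. In the T and NK classes that share was at most 0.763%, and in neutrophil-like cells it was 33.1% in WT and 15.5% in DTR. The 4 B cell genes summed to 0.326 and 0.105, the neutrophil genes to 0.282 and 0.692, the macrophage genes to 0.181 and 0.0649, and the stromal genes to 0.361 and 0.586. In plasma-like cells the 4 neutrophil genes summed to 0.0641 in WT and 4.11 in DTR, all 4 past the fold, beside 5.63% of all genes ranked in this class. The 7 naive and central memory genes summed to 1.48 and 0.744 there, 5 of them past the fold downward, and the 9 effector genes to 0.945 and 0.139. The part of these lists in the *Pim1* and *Pim2* differences of plasma-like cells was not tested.

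State genes of CD8 T-like cells were given by 4 lists, in a class where 4.41% of all genes ranked were past the fold. Of the 7 naive and central memory genes, 1 was past the fold downward, *S1pr1*, the receptor for exit from tissue (3.37 in WT and 1.55 in DTR), and the summed level was 33.6 and 27.2. Of the 7 effector genes ranked, 1 was past it upward, *Gzmb* (0.331 and 1.05, from 72 and 29 UMIs), and 0 downward. *Gzmk*, *Prf1* and *Cxcr6* had log2 ratios of -0.33, -0.86 and -0.66, and *Nkg7*, *Ccl5* and *Cxcr3* of 0.19, 0.29 and 0.06. The median of the effector list was 0.06. Of the 5 early response genes ranked, *Fos* (1.02 and 2.22) and *Nr4a1* (0.774 and 1.92) were past the fold. *Jun*, *Junb* and *Cd69* had log2 ratios of -0.51, 0.11 and 0.17, and the median of this list was 0.17. Of the 3 glucocorticoid response genes ranked, *Ddit4* (0.375 and 0.872) and *Dusp1* (1.72 and 3.58) were past the fold. Stress from cell isolation also moves early response genes, and their part in the *Pim2* difference was not tested.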

How the data were processed

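Single-cell RNA-seq covered 1 WT and 1 *Postn*-DTR library of omental cells, each from 3 pooled mice, 5 days after DT. The deposited values are natural log, ln(1 + UMIs per 10000), computed by the authors per cell. The submitters' processing notes name Cell Ranger 6.0.0 and mm10, and the labels a 5′ kit, whereas the study's methods name a 3′ kit and another version; which holds was not settled. UMIs were recovered from the smallest step of each cell, and 99.9668% of WT and 99.9107% of DTR values came out whole within 0.1. Cells with 200 to 7500 genes and at most 25% mitochondrial UMIs were kept and clustered with Seurat 5.3.0 (sctransform 0.4.2, R 4.3.3) on 3000 variable genes without receptor segments, 30 components and a resolution of 0.8. Clusters were named from marker genes, by thresholds set after the clusters had been seen. Scrublet (scanpy 1.11.5, score above 0.25) marked 135 WT and 103 DTR cells, which were kept; its automatic threshold marked almost no WT cells.

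The level is the mean over cells of UMIs per 10000, ratios add 0.02, and a call is an absolute log2 ratio of at least 1 among genes with at least 100 UMIs in the class. Intervals are 95% exact Poisson, binomial or conditional binomial, and cover counting error only. The interval beside a log2 ratio is that of summed UMIs, also where the ratio printed is one of means. With 1 library per group no test was run. Genes named were the Pim genes, the 5 genes most like each by Pearson's r (levels of at least 0.2 in 1 point, 0.1 added, receptor segments left out) and list genes past the fold or singled out after their values were seen. A split of CD8 T-like cells and 1 gene of a list are not reported here. The members and the lists were chosen with earlier results of these data known. The computation of ratios was checked before use on simulated CD8 T-like cells with planted changes. Counts there were Poisson draws around the WT means, so variation between cells or libraries beyond counting error was not covered. Of gene IDs, 19950 of 19960 matched GENCODE.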

Additional observations from a re-analysis of the deposited data

Results flagged for a closer look

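*Pim2* moved in opposite directions in different classes. Its log2 ratio of DTR over WT was -0.98 in plasma-like cells and -0.93 in cycling plasma-like cells, with counting intervals below 0. All 7 ranked T, NK and B classes (those with at least 100 *Pim2* UMIs) had intervals above 0. CD8 T-like cells, by whose DTR level *Pim2* was chosen, are among these 7. *Pim1* was lower in DTR in cycling B-like cells (-0.28), against 9 ranked classes with intervals above 0. The share of all genes with intervals above 0 is not given here. With 1 library per group, neither difference between classes was tested.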

How the results depend on the processing

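No paired analysis was possible because each group was 1 library. Alternatives to the log2 ratios were summed UMIs, totals that left out receptor, ribosomal and mitochondrial genes, median centring, thinning to 1000 UMIs, leaving out the top cell, removing doublets, at least 500 genes, a resolution of 1.6, gates on marker UMIs and subtraction of plasma cell RNA. Of the planned ones 346 moved a ratio by less than the half-width of its counting interval and 35 by more, and of those added after the data were seen 3 did so by less and 5 by more. Some of the 346 could hardly move, such as *Pim2* in CD8 T-like cells at a resolution of 1.6 (1.72 again). The half-width also grows as UMIs fall. *Pim2* in cycling B-like cells counted as moved by less although thinning left 0 UMIs in both libraries. For *Pim2* in CD8 T-like cells the ratio of 1.72 was 0.754 after thinning, from 27 and 6 UMIs. The shares of these cells with a *Pim2* UMI, 6.38% and 12.2% at 1000 UMIs, were 11.5% and 32.7% at 2000 and 24.2% and 55.1% without thinning. The median share of genes past the fold was 3.74%, and 15.5% at an absolute log2 ratio of at least 0.58. Of the 15 genes named for likeness, 4 stayed by Spearman's rho (1 of 5 for *Pim2*) and 3 over WT classes alone (0 of 5 for *Pim2*). Of the 32 ranked ratios 8 changed sign under 1 of these settings, and among the clusters added later *Pim2* in plasma-like cells did so in cluster 19 (1.15). Under thinning these were *Pim1* in naive CD4 T-like (-0.06), NKT-like (-0.31) and cycling B-like cells (0.20), and *Pim3* in cycling plasma-like (-0.27) and granulocyte precursor-like cells (0.96). At resolution 1.6 they were *Pim1* in non-naive CD4 T-like (-0.06) and granulocyte precursor-like cells (0.03), and with gates *Pim3* in plasma-like cells (-0.50), where *Pim2* was at -0.56. Thinning ended the fold call of *Pim2* in NK-like cells (0.88) and brought *Pim3* in B1-like cells to 0.05. The causes were not tested.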
